A study of Homo sapiens with 4 samples.

Results

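The genes described here belong to the transcriptional program of the stress factor ATF4 in human cells, together with the aminoacyl-tRNA synthetases that this program is known to include. They are the 39 rows of the count table, of 19901 genes, whose Ensembl identifiers map to a list of symbols, and they comprise 6 transcription factors, 7 feedback and stress effectors, 9 enzymes of amino acid and one-carbon metabolism, 4 amino acid transporters, and 12 cytosolic tRNA synthetases with the tRNA export receptor XPOT. The cells (genotype KAP1_dTAG_CloneD5) are 1 clone of HCT116, a line from a colorectal carcinoma, in which both alleles of TRIM28, the gene of the corepressor KAP1, carry an FKBP12 degron at the end of the protein. Both groups carry the degron. DMSO libraries come from cells given the vehicle for 8 h and dTAG libraries from cells given dTAG-13, which recruits an E3 ligase to the tagged protein, for the same time, all in medium with serum. Nascent RNA was labeled with 500 µM 4-thiouridine for 10 min, purified and sequenced (TT-Seq), with 2 libraries per condition.

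Protein-coding genes took 93105627 to 102314741 counts per library, and the 12612 genes that reached 50 counts in each of the 4 libraries were tested. TRIM28 stood at 61.7 and 69.8 CPM (counts scaled by the TMM-adjusted library size) with DMSO and at 53.5 and 47.9 CPM with dTAG, but its RNA does not check the depletion, which acts on the protein. Of 9 epithelial markers, 7 passed the count minimum, VIL1 and CDX1 did not, and the list summed to between 99380 and 122035 counts per library. The 12 markers of immune cells, fibroblasts and endothelium summed to between 633 and 800 counts. Of these, 2 passed the count minimum. They were COL1A1, with 538 and 526 counts with DMSO and 520 and 420 with dTAG, and VWF, with 176, 217, 141 and 153. PTPRC had at most 1 count in any library, and COL1A2 was at 0 in all 4. The study's methods describe the 2 libraries of a condition as biological replicates, and p-values rest on the spread between them.

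In the integrated stress response, kinases that sense amino acid shortage, unfolded proteins in the endoplasmic reticulum, heme deficiency or double-stranded RNA phosphorylate the initiation factor eIF2. General translation then falls while translation of the ATF4 mRNA rises, so that ATF4 is controlled largely at the protein level. ATF4 pairs with C/EBP proteins on composite C/EBP-ATF response elements and raises genes for amino acid synthesis, uptake and tRNA charging, and several of its targets feed back on the pathway.

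Windows from 250 bases before to 50 bases after each RefSeq transcript start (GRCh38.p14) were searched on both strands for the response element TGATGNAA and for its stricter form TGATGCAA, which is contained in it. Of the 39 genes, 31 were matched to a window, and 12 of the 31 (38.7%) held TGATGNAA, which was found in 4.46% of all genes with a window and in 3.62% of all windows of this length. The stricter form was held by 8 of 31 (25.8%) against 1.08% of all genes and 0.866% of all windows. A match describes letters in the window and is neither a site nor a cause. The following are the matches in the 5 genes that rose with dTAG and hold the stricter form, each printed 5′ to 3′ on the strand that carries the element, with the element in capitals:
CEBPG: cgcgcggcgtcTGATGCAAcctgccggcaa
CHAC1: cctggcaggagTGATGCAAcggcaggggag
CARS1: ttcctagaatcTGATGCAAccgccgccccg
IARS1: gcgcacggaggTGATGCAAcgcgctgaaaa
NARS1: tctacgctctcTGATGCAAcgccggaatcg

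These stretches lie, in hg38, at chr19:33374060-33374089 (plus strand, an intron of CEBPG), chr15:40953251-40953280 (minus strand, UTR of CHAC1), chr11:3057407-3057436 (plus strand, UTR of CARS1), chr9:92293692-92293721 (plus strand, UTR of IARS1) and chr18:57621804-57621833 (minus strand, UTR of NARS1). The annotation is that of GENCODE 44. Counted from 1 at the RefSeq start along the gene, the first base of the element was at -42 in CEBPG, -209 in CHAC1, -2 in CARS1, -13 in IARS1 and 15 in NARS1. ASNS, SLC7A1 and GARS1 were added after their values were seen, because they were among the genes with larger rises and held only the looser form, in all 3 as TGATGAAA:
ASNS: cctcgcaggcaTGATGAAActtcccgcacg
SLC7A1: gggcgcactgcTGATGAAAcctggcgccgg
GARS1: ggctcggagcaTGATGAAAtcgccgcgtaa

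They lie at chr7:97872458-97872487 (minus strand, UTR of ASNS), chr13:29595663-29595692 (minus strand, UTR of SLC7A1) and chr7:30594834-30594863 (minus strand, UTR of GARS1), with the element at -68, 8 and -33. ATF4 itself held neither form in its window. For comparison, its 30 bases before the RefSeq start (chr22:39520529-39520558, plus strand, UTR of ATF4), with no capitals since there is no match, read:
ATF4: gtctataaagggccggcgggcggccacggc

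The looser form was held by 8 of 20 genes that rose with dTAG and by 4 of 11 that did not pass the test (40.0% and 36.4%), and the stricter form by 5 of 20 and 3 of 11. These differences were not tested. The remaining matches were in TARS1, MARS1 and AARS1 with the stricter form and in SLC3A2 with TGATGTAA. The RefSeq table used here has no window for ALDH1L2, NUPR1, YARS1, EIF4EBP1, SLC7A11, SHMT2, LARS1 and PSPH.

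With dTAG, 23 of the 38 tested genes of the program rose and 0 fell, at an adjusted p under 0.05 from a two-sided edgeR quasi-likelihood test. They span tRNA charging (9 genes), feedback and stress effectors (5), metabolic enzymes (5), transporters (2) and transcription factors (2). That is 60.5% of the genes tested, where 3.44% of all tested genes rose and 3.66% fell. The genes of the program were chosen with earlier results of these data known. In the lower direction SHMT2 alone had an unadjusted p under 0.05 (0.0493). DESeq2 also called 0 of the 38 lower, where it called 572 of all tested genes lower. The median log2 fold change was 0.35, against -0.015 over all tested genes. Only TRIB3, ASNS, SLC7A11 and SLC7A1 rose at least 1.5-fold (10.5%, against 0.507% of all tested genes), so most changes were small. NUPR1, a small chromatin-associated stress protein, was not tested, with 29 and 65 counts with DMSO and 24 and 29 with dTAG. In bulk libraries, a larger share of expressing cells and more RNA per cell cannot be told apart.

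Both dTAG libraries lay above both DMSO libraries for 30 of the 38 genes (78.9%) and below them for 1, SHMT2. Over all tested genes, the shares were 28.1% above and 30.7% below. The median of the 38 genes, relative to the DMSO mean on the log2 scale, was -0.04 and 0.04 with DMSO and 0.30 and 0.40 with dTAG. The dTAG medians thus stood apart from the DMSO medians by more than the pooled SD between replicates, 0.066. Between the 2 dTAG libraries, replicate 2 was the higher for each of the 23 genes that rose. It was also the higher for the other tested genes of the program except SHMT2 and SLC7A5.

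**Figure D1:**
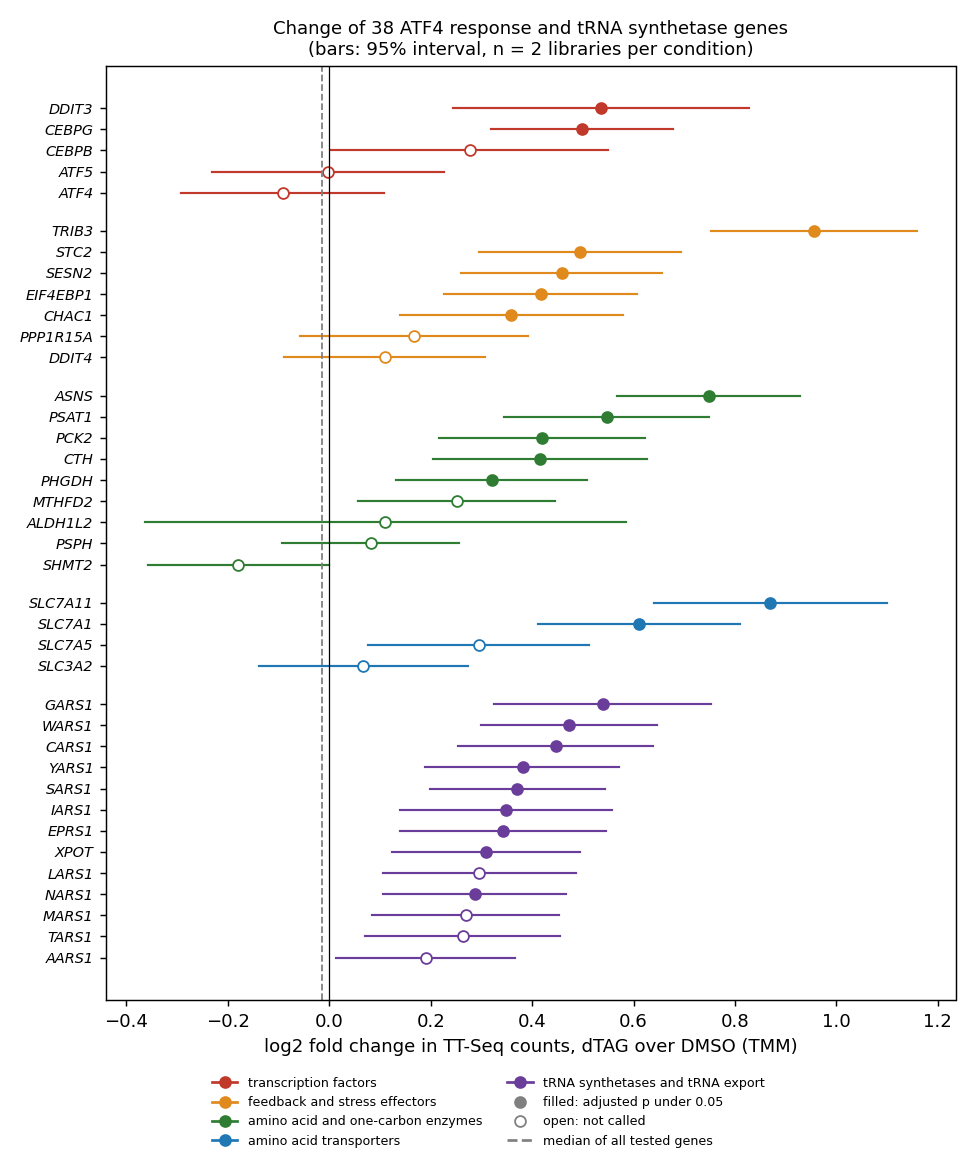
Log2 fold change of TT-Seq counts, dTAG over DMSO (x axis), of the 38 tested genes by role (y axis), with 95% intervals from 2 libraries per condition. Filled points passed the test (23 genes) and lie to the right of 0, the open points include ATF4 and SHMT2 to the left of it, and the dashed line marks the median of all tested genes at -0.015. With library sizes set to spike-in totals, no gene passed the test.

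The count of genes that rose changed with each library left out: it grew without either DMSO replicate, and most calls were lost without either dTAG replicate. The number called among all tested genes moved in the same directions. These fits take the spread from the group that keeps both libraries, so such counts do not show dependence on a single library. Without DMSO replicate 1, ATF4 and SHMT2 both stood at -0.22. Of the 38 genes, 32 and 36 lay above the median of all tested genes without DMSO replicate 1 or 2. Without dTAG replicate 1 or 2, these numbers were 36 and 34. The choice of scaling also ended calls. With library sizes set to the totals of the ERCC spike-in RNAs, 0 of the 38 passed the test. Their median was then 1.00, where that of all tested genes was 0.63. An unadjusted p under 0.05 was reached by 6 of the 38 and by 229 of all 12612 tested genes. With 1 factor estimated from the ERCC RNAs as a covariate, and upper-quartile factors in place of TMM, 24 passed, but they were partly different genes. CTH, EPRS1, IARS1, NARS1 and XPOT no longer passed, while CEBPB, PPP1R15A, DDIT4, MTHFD2, SLC7A5 and MARS1 did. Upper-quartile normalization ended the calls of DDIT3, CHAC1, PHGDH, EPRS1, IARS1, NARS1 and XPOT, and a minimum of 200 counts or genes without overlaps ended those of CHAC1 and NARS1. The study itself normalized on spike-in RNAs, with settings not given in the sources used here.

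**Figure D2:**
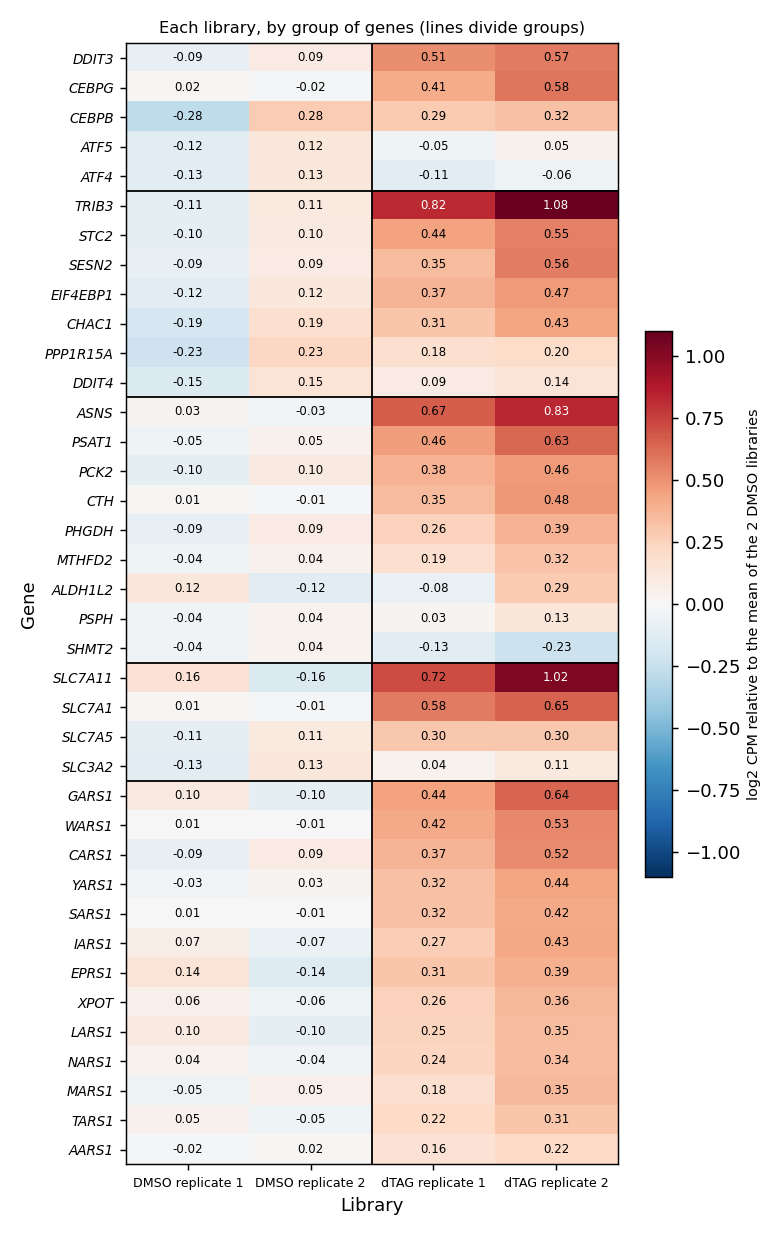
Log2 CPM in each of the 4 libraries (columns) as the difference from the DMSO mean, for the 38 tested genes (rows), with the value printed in each cell and lines between the roles. The dTAG columns are above 0 for nearly all genes, highest for TRIB3 (0.82 and 1.08) and SLC7A11 (0.72 and 1.02), while ATF4 and SHMT2 are below 0 in both. With library sizes set to spike-in totals, ATF4 and SHMT2 turned positive (0.59 and 0.47) but stayed below the median of all tested genes, 0.63.

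Among the transcription factors, DDIT3 and CEBPG rose with dTAG while ATF4, which heads the program, did not pass the test. In detail, 2 of 5 tested factors rose, 0 fell, and the median log2 fold change of the 5 was 0.28. ATF4 (ENSG00000128272.14, hg38 chromosome 22 from 39519695 to 39522685) stood at 213 and 254 CPM with DMSO (replicates 1 and 2) and at 215 and 223 CPM with dTAG, an order kept for the values of all genes that follow. Its dTAG libraries lay between the DMSO libraries. The log2 fold change was -0.09 (95% interval -0.29 to 0.11, adjusted p = 0.56). With ERCC totals as library sizes it was 0.59 (adjusted p = 0.48), below the median of all tested genes in that setting, 0.63. Once trends on GC content and gene length were removed, it was 0.19, with an adjusted p of 0.034. ATF5, a relative of ATF4 that is likewise controlled by translation, stood at 22.9 and 27.0 CPM with DMSO and 24.1 and 25.8 CPM with dTAG. Its groups overlapped, and its log2 fold change was 0.00 (95% interval -0.23 to 0.23, adjusted p = 0.99).

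DDIT3, which encodes the factor CHOP and is linked to cell death after prolonged stress, rose from 7.17 and 8.08 CPM to 10.8 and 11.3 CPM. This was a rise of 0.54 on the log2 scale (SE 0.14, adjusted p = 0.026), and both dTAG libraries were above both DMSO libraries. Of its 5150 bp, 2769 overlap another gene on the same strand, where reads were counted for neither gene, so these counts come from the remaining 2381 bp. CEBPG, a C/EBP protein that dimerizes with ATF4, rose from 81.0 and 78.9 CPM to 106 and 119.9 CPM, by 0.50 (SE 0.086, adjusted p = 0.0013). CEBPB, another partner of ATF4, had a log2 fold change of 0.28 (adjusted p = 0.18). Its DMSO libraries were far apart, at 21.1 and 31.0 CPM, and the dTAG libraries at 31.2 and 31.9 CPM lay just above the higher one.

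Among the feedback and stress effectors, 5 of 7 rose and 0 fell, with a median log2 fold change of 0.42. TRIB3 (ENSG00000101255.10, chromosome 20 from 362835 to 397559), a pseudokinase that restrains ATF4 and CHOP activity, showed the largest rise of the 38 genes. It went from 58.1 and 67.7 CPM with DMSO to 111 and 133 CPM with dTAG, 1.94-fold or 0.96 on the log2 scale (SE 0.098, adjusted p = 6.2e-06). STC2, a secreted glycoprotein hormone, rose from 194 and 223 CPM to 282 and 305 CPM, by 0.49 (SE 0.096, adjusted p = 0.0034). SESN2, which restrains mTORC1 when leucine is short, rose from 132 and 149.7 CPM to 179 and 208 CPM, by 0.46 (SE 0.095, adjusted p = 0.0061). In all 3 genes the lower dTAG library was above the higher DMSO library.

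EIF4EBP1, a repressor of cap-dependent translation, rose from 96.7 and 114 CPM to 136 and 146 CPM, by 0.42 (SE 0.091, adjusted p = 0.009). CHAC1, which degrades glutathione, rose from 39.3 and 50.9 CPM to 55.4 and 60.3 CPM. Its rise of 0.36 (SE 0.11, adjusted p = 0.045) was close to the threshold. The other two did not pass the test: PPP1R15A (GADD34), the phosphatase subunit that dephosphorylates eIF2, had a log2 fold change of 0.17 (adjusted p = 0.32), and DDIT4 (REDD1), another inhibitor of mTORC1, one of 0.11 (adjusted p = 0.47). In both, DMSO replicate 2 was above both dTAG libraries, and the sign turned without DMSO replicate 1.

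Among the enzymes, 5 of 9 rose and 0 fell, with a median of 0.32. ASNS (ENSG00000070669.16, chromosome 7 from 97852118 to 97872542), which makes asparagine from aspartate and glutamine, led them. It rose from 91.0 and 87.7 CPM with DMSO to 142 and 158 CPM with dTAG, 1.68-fold or 0.75 on the log2 scale (SE 0.086, adjusted p = 2e-05). The serine synthesis pathway makes serine from a glycolytic intermediate in 3 steps, by PHGDH, PSAT1 and PSPH. PSAT1 rose from 281 and 299 CPM to 399 and 449 CPM, by 0.55 (SE 0.097, adjusted p = 0.0016). PHGDH rose from 126 and 143 CPM to 161 and 176 CPM, by 0.32 (SE 0.090, adjusted p = 0.037). PSPH, the last enzyme of the pathway, had a log2 fold change of 0.08 (adjusted p = 0.55) with overlapping groups, so the pathway's genes did not all rise.

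CTH, which releases cysteine from cystathionine, rose from 24.6 and 24.1 CPM to 31.1 and 33.8 CPM, by 0.42 (SE 0.10, adjusted p = 0.018). PCK2, the mitochondrial enzyme that makes phosphoenolpyruvate, rose from 31.2 and 35.6 CPM to 43.4 and 46.0 CPM, by 0.42 (SE 0.097, adjusted p = 0.014). The mitochondrial one-carbon enzymes did not pass the test. MTHFD2 had a log2 fold change of 0.25 (adjusted p = 0.095), ALDH1L2 one of 0.11 (95% interval -0.36 to 0.58) at 176 to 212 counts per library, and SHMT2, which splits serine into glycine and a one-carbon unit, one of -0.18 (adjusted p = 0.19). SHMT2 was at 66.5 and 70.0 CPM with DMSO and at 62.5 and 58.1 CPM with dTAG. Its value turned positive with the GC and length trends removed (0.056). With ERCC totals it was 0.47, below the median of all tested genes in that setting, 0.63.

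Of the 4 transporters, SLC7A11 and SLC7A1 rose and 0 fell, with a median of 0.45. SLC7A11 (ENSG00000151012.13, chromosome 4 from 138164097 to 138242349), the cystine importer that supplies cysteine for glutathione, rose from 148 and 119 CPM to 217 and 269 CPM, 1.83-fold or 0.87 on the log2 scale (SE 0.11, adjusted p = 5.2e-05). SLC7A1 (ENSG00000139514.12, chromosome 13 from 29509410 to 29595688), which imports arginine and lysine, rose from 351 and 347 CPM to 520.3 and 546 CPM, 1.53-fold or 0.61 (SE 0.096, adjusted p = 0.00056). In both genes the 2 groups were well apart, although the DMSO libraries of SLC7A11 differed more from each other than those of SLC7A1, and SLC7A11 stood at 0.49 (adjusted p = 4e-05) with the ERCC factor. SLC7A5, the light chain of the leucine transporter, had a log2 fold change of 0.29 (adjusted p = 0.085) with both dTAG libraries above both DMSO libraries. SLC3A2, the heavy chain that SLC7A5 and SLC7A11 both need at the membrane, had one of 0.07 (adjusted p = 0.69) with overlapping groups, and its sign turned with upper-quartile normalization.

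The synthetases attach each amino acid to its tRNA, and XPOT carries tRNA out of the nucleus. Of these 13 genes, 9 rose and 0 fell, and both dTAG libraries lay above both DMSO libraries for all 13. Their log2 fold changes ran from 0.19 to 0.54 with a median of 0.34, a narrower range than that of the enzymes (-0.18 to 0.75). GARS1, which charges glycine and also supplies the mitochondrial enzyme, rose from 328 and 287 CPM to 416 and 477 CPM, by 0.54 (SE 0.10, adjusted p = 0.0031). WARS1 (tryptophan) rose from 67.6 and 66.98 CPM to 89.8 and 97.1 CPM, by 0.47 (SE 0.084, adjusted p = 0.0016). CARS1 (cysteine) rose from 133 and 152 CPM to 184 and 204 CPM, by 0.45 (SE 0.092, adjusted p = 0.0059). These 3 were the largest of the set, and neither these nor the other synthetases reached 1.5-fold.

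YARS1 (tyrosine) rose from 238 and 248 CPM to 304 and 329 CPM, by 0.38 (SE 0.092, adjusted p = 0.017). SARS1 (serine) rose from 82.4 and 81.7 CPM to 103 and 109.6 CPM, by 0.37 (SE 0.083, adjusted p = 0.01). In SARS1, as in WARS1, the DMSO libraries were nearly equal and both dTAG libraries clearly above them. IARS1 (isoleucine) rose from 414 and 375 CPM to 475 and 529 CPM, by 0.35 (SE 0.10, adjusted p = 0.041). EPRS1, which charges both glutamate and proline, rose from 194 and 160.2 CPM to 218 and 231 CPM, by 0.34 (SE 0.097, adjusted p = 0.038). For EPRS1 the gap between the DMSO libraries was larger than the gap from the upper one to dTAG replicate 1.

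XPOT, the only gene of this set that is not a synthetase, rose from 170.1 and 157 CPM to 195 and 209.8 CPM, by 0.31 (SE 0.089, adjusted p = 0.04). NARS1 (asparagine) rose from 159 and 151 CPM to 182 and 195 CPM, by 0.29 (SE 0.087, adjusted p = 0.049). The other four did not pass the test, with log2 fold changes of 0.30 for LARS1 (leucine, adjusted p = 0.052), 0.27 for MARS1 (methionine, adjusted p = 0.066), 0.26 for TARS1 (threonine, adjusted p = 0.082) and 0.19 for AARS1 (alanine, adjusted p = 0.16). NARS1 and LARS1 thus lay on either side of the threshold with nearly equal changes. The log2 fold changes of all 13 stayed positive in every alternative setting. The fit with the ERCC factor, which also used upper-quartile factors, lowered several of them by more than 1.5 times. With it, 5 of the 9 genes kept their call, GARS1 stood at 0.29 (adjusted p = 0.0042), and 4 lost it: EPRS1 at 0.067 (adjusted p = 0.51), IARS1 at 0.15 (0.14), NARS1 at 0.15 (0.11) and XPOT at 0.14 (0.14). MARS1, at 0.25, then passed (adjusted p = 0.04), and LARS1 was at 0.065 and TARS1 at 0.12. Upper-quartile normalization alone also ended the calls of EPRS1, IARS1, NARS1 and XPOT, at 0.27, 0.28, 0.21 and 0.24.

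Levels per kilobase of counted gene length spanned a wide range. In the DMSO libraries ATF4 was the highest at 78.1 ± 9.85 CPM per kilobase (SD, n = 2), followed by DDIT4 at 31.2 ± 4.61 and PPP1R15A at 24.6 ± 5.50 (SD, n = 2). The libraries of DDIT4 and PPP1R15A overlapped, while ATF4 stood clear of both. At the other end, CTH was at 0.849 ± 0.011 CPM per kilobase and ALDH1L2 at 0.0297 ± 0.0036 (SD, n = 2). TRIB3 and SLC7A11, with the largest rises, ranked 33 and 34 of the 38 in level. TRIB3 was at 1.67 and 1.95 CPM per kilobase with DMSO and at 3.20 and 3.83 with dTAG, and SLC7A11 at 1.89 and 1.51 and at 2.78 and 3.44. None of the 3 genes with the highest levels passed the test. Of the 37 pairs of neighbors in this order, 24 had overlapping DMSO libraries, and their order within the pair is within the spread.

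**Figure D3:**
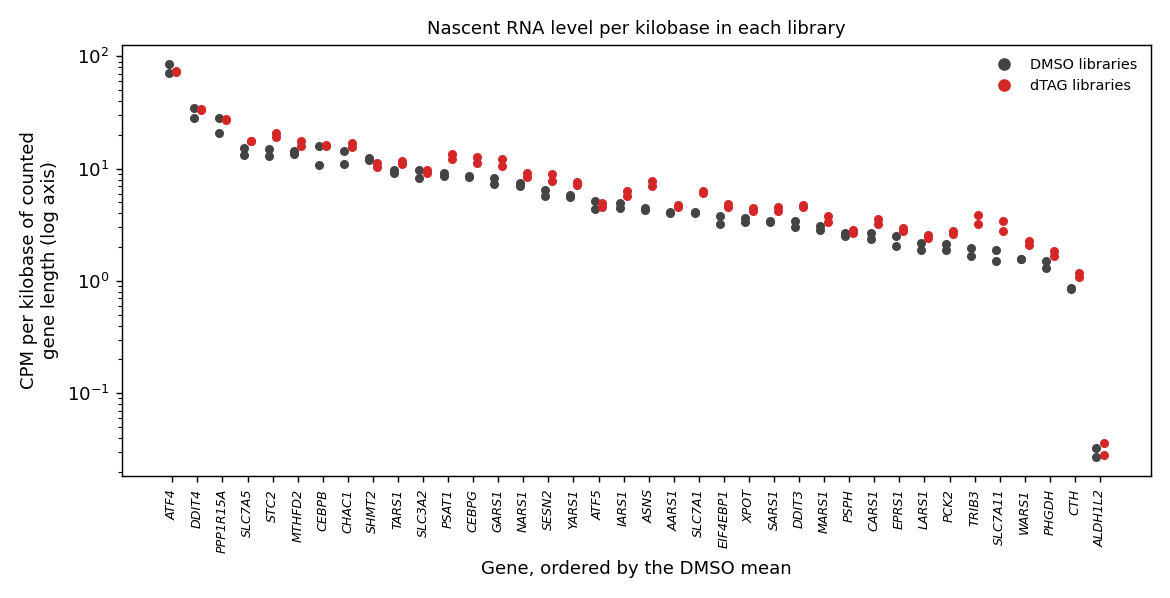
Level of each of the 38 tested genes in CPM per kilobase of counted gene length (log axis) in the 2 DMSO (grey) and the 2 dTAG libraries (red), ordered by the DMSO mean. Levels run from ATF4 at 78.1 to ALDH1L2 at 0.0297 CPM per kilobase, and the red points of TRIB3 and SLC7A11, near the low end, lie well above the grey ones.

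Changes with dTAG were related to base composition and length: over the 12612 tested genes, which share the same 4 libraries, Spearman's rho of the log2 fold change was -0.56 with GC content and 0.42 with gene length. The difference between the DMSO libraries followed GC content too (rho 0.75). The 38 genes had a median GC content of 47.2% and a median length of 31.4 kb, where all tested genes had 44.9% and 36.1 kb. After removal of these trends from each library, 33 of the 38 rose (86.8%, against 10.6% of all tested genes) and 0 fell, and the median log2 fold change became 0.39. All 23 genes named above were among the 33.

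The other 10 were ATF4, CEBPB, PPP1R15A, DDIT4, MTHFD2, SLC7A5, LARS1, MARS1, TARS1 and AARS1. Without the trends, CEBPB stood at 0.67 (adjusted p = 0.00098), CHAC1 at 0.63, PPP1R15A at 0.42 and DDIT4 at 0.39, all short genes of high GC content, each more than 1.5 times its value with the trends. Values became smaller for long genes of low GC content, to 0.67 for SLC7A11 and to 0.20 for EPRS1. TRIB3 was at 1.05 and ASNS at 0.65. ATF5 (adjusted p = 0.06), PSPH, SHMT2, ALDH1L2 and SLC3A2 did not pass the test in either setting.

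**Figure D4:**
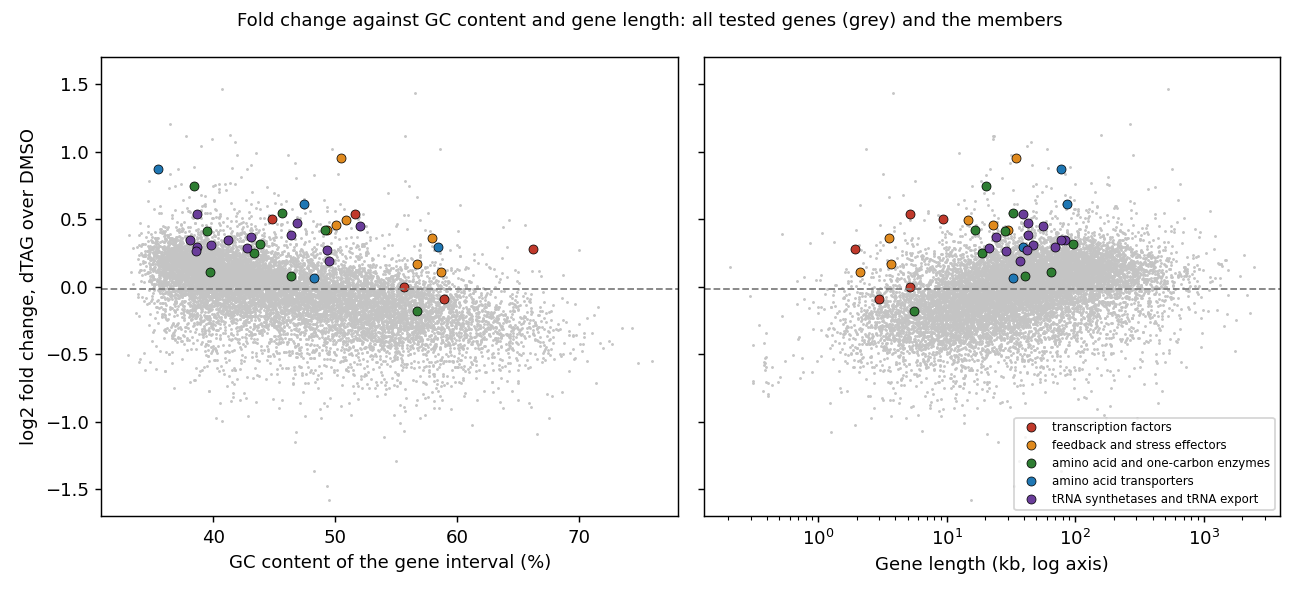
Log2 fold change, dTAG over DMSO, against GC content of the gene interval (left) and gene length on a log axis (right), for all tested genes (grey) and the 38 genes of the program (colored by role). The grey points fall with GC content (rho -0.56) and rise with length (rho 0.42), and most colored points lie above most grey points at the same GC content or length.

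Other genes of the same pathway, 63 in 6 lists, were counted for comparison. Of the 61 tested, 5 rose (8.2%) and 0 fell in edgeR, 7 rose and 0 fell in DESeq2, and the median log2 fold change was 0.04. Other settings called some of them lower: upper-quartile normalization gave 2 rises and 3 falls, and the ERCC factor 4 rises and 3 falls. Over all 12612 tested genes, upper-quartile normalization called 255 higher and 869 lower, and the ERCC factor 454 higher and 755 lower. The fit without DMSO replicate 1 also called some of the 61 lower. None of the 4 eIF2 kinases (EIF2AK1 to EIF2AK4, whose values ran from -0.07 to 0.14) passed the test. Nor did any of 7 tested regulators of these kinases or of eIF2 dephosphorylation. Of these 11 genes, 1 had an unadjusted p under 0.05, PPP1CA at -0.27, as did 3355 of all tested genes. Of 8 subunits of eIF2 and of its exchange factor eIF2B, EIF2S2, the beta subunit of eIF2, rose from 232 and 242 CPM to 295 and 304 CPM, by 0.34 (SE 0.090, adjusted p = 0.028). OMA1 and EEF1E1 were not tested, because nearly all of their length overlaps another gene on the same strand.

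Of 10 tested genes for the remaining cytosolic synthetases and their scaffold proteins, 1 rose, where 8 of the 12 synthetases of the program did, and the medians were 0.06 and 0.35. The gene was FARSB, the beta subunit of the phenylalanine enzyme, which went from 189 ± 16.2 CPM to 233 ± 4.69 CPM (SD, n = 2), a rise of 0.31 (SE 0.091, adjusted p = 0.047) that became 0.12 (adjusted p = 0.2) with the ERCC factor and 0.15 (adjusted p = 0.015) without the GC and length trends. Of 17 mitochondrial synthetases, 0 passed the test, with a median of 0.03. In edgeR 5 of them had an unadjusted p under 0.05, as did 3355 of all 12612 tested genes. CARS2, NARS2 and WARS2 were then higher, and HARS2 and VARS2 lower. SARS2, at 51 to 103 counts per library, was the lowest of the 17 at -0.53. All but 138 bp of its length overlaps another gene on the same strand. The difference between these lists and the synthetases of the program was not tested, and the lists were chosen with earlier results of these data known.

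In the other arms of the unfolded protein response, which signal through IRE1 and ATF6, 3 of 15 genes rose and 0 fell, with a median of 0.04. ATF6, the membrane-bound sensor, rose from 198 and 171 CPM to 229 and 267 CPM, by 0.43 (SE 0.099, adjusted p = 0.014), which became 0.15 (adjusted p = 0.13) with the ERCC factor and 0.26 (adjusted p = 0.0019) without the GC and length trends. XBP1, the factor whose mRNA IRE1 splices, rose from 55.7 and 60.3 CPM to 74.5 and 74.8 CPM, by 0.36 (SE 0.085, adjusted p = 0.014). HERPUD1, which acts in degradation of proteins of the endoplasmic reticulum, rose from 100.2 and 107 CPM to 126 and 135 CPM, by 0.33 (SE 0.085, adjusted p = 0.021). Upper-quartile normalization ended the calls of HERPUD1, EIF2S2 and FARSB. The other 12, which include the chaperone HSPA5, did not pass the test. With either dTAG replicate left out, 0 of the 61 genes of the 6 lists were called.

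**Figure D5:**
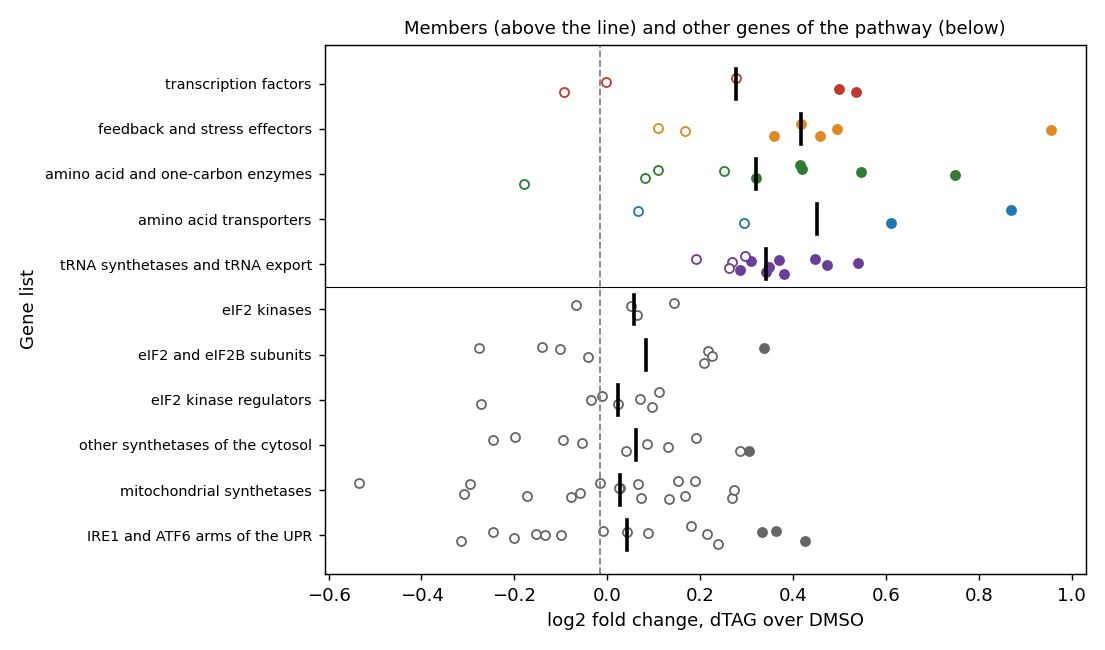
Log2 fold change, dTAG over DMSO (x axis), of each tested gene in the 5 roles of the program (above the line) and in 6 lists of other pathway genes (below the line, grey). Filled points passed the test, bars mark each list's median, the dashed line marks the median of all tested genes, and the medians lie between 0.28 and 0.45 above the line and between 0.02 and 0.08 below it.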

How the data were processed

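The authors removed adapters with Trim Galore 0.6.4, mapped reads to hg38 with STAR and counted them over whole protein-coding genes with featureCounts (Subread 1.6.3). FastQC 0.11.8 and edgeR 3.40.1 are also named in the submitters' processing notes. The deposited values are raw counts of 19901 genes and 92 ERCC RNAs. The counting settings are not given in the sources used here. All 436 genes wholly inside a gene on the same strand had 0 counts, against 19.9% of 608 inside genes on the opposite strand, so counting separated the strands and left out same-strand overlaps. All 4 columns were used.

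Samples were grouped by their labels. Genes that reached 50 counts in each of the 4 libraries were fitted together in R 4.3.3 with edgeR 4.0.16 (TMM factors, quasi-likelihood F test, Benjamini-Hochberg adjustment over 12612 genes, no block), which was tested on simulated data. SEs were derived from the fold change and the F statistic. Libraries of 93105627 to 102314741 counts leave the spread between 2 replicates as the limit of precision. Alternatives were DESeq2 1.42.0, upper-quartile factors, ERCC totals or 1 ERCC factor from 14 ERCC RNAs, other count minimums (none, 200), a replicate block, removal of GC and length trends (lowess, span 0.3), genes without overlaps, and each library left out. The fit with the ERCC factor used upper-quartile factors in place of TMM. Python 3.11.15 read GC content from the genome and the windows from RefSeq. Symbols came from GENCODE 44, which held 19802 of the 19901 identifiers, and overlaps from the gene intervals deposited with the counts.

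The genes and lists were chosen with earlier results of these data known. All 39 genes are accounted for. Values in each library are given for those past the test and for ATF4, ATF5 and DDIT3, and of the other pathway genes those past the test are named, up to 3 per list and direction. Sites are printed for genes past the test with TGATGCAA, none from chromosome 8, for ATF4, and for ASNS, SLC7A1 and GARS1 with TGATGAAA, which were added after their values were seen.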

Additional observations from a re-analysis of the deposited data

How the results depend on the processing

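The median of the 38 genes and the direction of each of the 23 that rose stayed positive in all settings, and the calls of TRIB3, ASNS and SLC7A11 were lost in 1 of 15, ERCC totals as library sizes. ERCC counts ranged from 9551 to 25165 per library, and with their totals 0 genes, 0 of the 38 and 0 of the other pathway genes were called (229 genes at an unadjusted p under 0.05). That setting moved the median of all genes to 0.63, the median of the 38 to 1.00, ATF4 to 0.59, ATF5 to 0.68 and SHMT2 to 0.47. Of all tested genes, 895 were called (434 higher and 461 lower), and with upper-quartile normalization 255 were higher and 869 lower. That normalization gave 16 of the 38, a median of 0.27 (all genes -0.09) and -0.0083 for SLC3A2. DESeq2 called 28 of the 38 and 5.39% of all tested genes higher, with ATF5 at 0.010. The fit with the ERCC factor and upper-quartile factors called 24 of the 38 higher, of which 18 were among the 23, and 3.6% of all tested genes. It called 4 other pathway genes higher and 3 lower, with ATF4 at 0.047, ATF5 at 0.11 and ALDH1L2 at -0.24. With no count minimum, 1417 genes, 26 of 39 and 8 other pathway genes were called, and ATF5 was at 0.0046. A minimum of 200 counts called 21 of 37 higher, where 3.42% of all genes tested then were higher. Genes without overlaps gave 17 of 29, where 3.67% of all such genes were higher.

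Removal of GC and length trends called 2281 genes, 33 of the 38 and 12 other pathway genes, with ATF4 at 0.19, ATF5 at 0.23, SHMT2 at 0.056 and ALDH1L2 at -0.0097. Same-numbered libraries did not deviate together (Pearson's r of their deviations from the group means -0.247 for either number). With 2 libraries per group, the r of either number is the same by construction. Differences between replicates also followed GC content in opposite directions (rho 0.75 with DMSO and -0.43 with dTAG). This r therefore cannot decide whether the numbers pair the samples. The replicate block called 340 genes, 13 of the 38 and 0 other pathway genes, with ATF5 at 0.0020. Together with trend removal it called 2643, 35 and 13, with ATF4 at 0.18, ATF5 at 0.22, SHMT2 at 0.056 and ALDH1L2 at -0.016. The crossed block, chosen after seeing the data, called 3190, 31 and 20, with ATF5 at 0.0012. Leaving out 1 library gave 69 to 5491 genes called, 3 to 32 of the 38 higher and 0 to 2 lower, and 0 to 32 other pathway genes. Fits with a lone library assume that it varies like the other group. Signs turned without DMSO replicate 1 in PPP1R15A (range over the 4 left-out libraries -0.0442 to 0.4155), DDIT4 (-0.034 to 0.2668) and SLC3A2 (-0.0535 to 0.197), without DMSO replicate 2 in ATF4 (-0.2154 to 0.0414), ATF5 (-0.1183 to 0.1224) and ALDH1L2 (-0.0845 to 0.289), without dTAG replicate 1 in ATF5 and without dTAG replicate 2 in ALDH1L2. The cause of these shifts was not tested.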
